A study of Mus musculus with 10 samples.

Results

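The Slc25 mitochondrial carrier family was followed in meningeal lymphatic endothelial cells (LECs) of female mice with and without stress. Members were all genes of the deposited count table whose symbol is Slc25a followed by a number, together with Ucp1, Ucp2 and Ucp3, which gave 50 of 55401 genes. RNA was sequenced from 3-month-old C57BL/6 females (C57BL/6J in the methods of the study) that were either naive or exposed for 6 days to sub-chronic variable stress (SCVS), with 5 replicates per group. No transgene or gene deletion was involved, and naive animals received no stress. Each replicate held LECs that were pooled from 3 to 4 mice and sorted from the dura mater as CD45-CD31+PDPN+ cells. The study sequenced these cells to ask what stress changes in the meningeal lymphatic endothelium, and the comparison of SCVS with naive replicates is the only contrast its design holds.

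Mitochondrial carriers are proteins of the inner mitochondrial membrane that exchange nucleotides, phosphate, carboxylates, amino acids, cofactors and metal ions between the cytosol and the matrix, and each gene encodes a transporter of its own with a characteristic set of substrates. The uncoupling proteins belong to the same family, and Ucp1, which lets protons return to the matrix and so produces heat in brown fat, is the best known of them. A few members work elsewhere, such as Slc25a17 in the peroxisome and Slc25a46 in the outer mitochondrial membrane. Endothelial cells draw much of their ATP from glycolysis, while their mitochondria supply biosynthesis and signalling.

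Total counts per replicate lay between 9984743 and 14094155, so that the floor of 3 counts used here corresponded to 0.213 to 0.300 CPM (counts per 1000000 counts of the replicate). Of the markers of lymphatic endothelium, Prox1 and Lyve1 had more than 3 counts in 8 of the 10 replicates, Pdpn in 9 and Flt4 in 10. The summed CPM of the blood endothelial markers was above that of the lymphatic ones in 9 of 10 replicates, and 3 libraries stood apart. The summed CPM of Pecam1, Cdh5 and Tek, which mark all endothelium, was 30.0 in naive replicate 5 against 1049 to 2316 in the other 9. The lymphatic list of 7 genes summed to 60.8 CPM in naive replicate 1 against 185 to 3074 elsewhere, and the erythroid list of 4 genes summed to 4387 CPM in SCVS replicate 5 against at most 124 elsewhere. The blood endothelial list (5 genes, all above the floor in both groups) ranged from 292 to 7550 CPM, the mural list from 385 to 7320 CPM and the neuronal and glial list from 65.1 to 1914 CPM, with the highest value in naive replicate 5. The fibroblast list ranged from 18.5 to 1499.7 CPM (median 700.5 in naive and 141 in SCVS replicates), the leukocyte and macrophage list from 0.288 to 795 CPM (highest in SCVS replicate 4) and the adipocyte list from 9.73 to 555 CPM (highest in naive replicate 4). The mural sums rested largely on Rgs5 (up to 5812 CPM), while Acta2 was above the floor in 10 replicates, Pdgfrb in 5 and Myh11 in 4. In the highest adipocyte sum Fabp4 held 545 CPM, while Adipoq and Plin1 were above the floor in 2 replicates each and Cidea in 3. In such pooled bulk RNA, fewer cells of a type and less RNA per cell cannot be told apart.

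Of the 50 carrier genes, 38 had more than 5 counts in at least 3 replicates and were tested among 14815 genes. The other 12 were Ucp1, Ucp3, Slc25a2, Slc25a13, Slc25a21, Slc25a31, Slc25a34, Slc25a41, Slc25a43, Slc25a47, Slc25a48 and Slc25a54. Among these 12, Slc25a2 and Slc25a31 had 0 counts in all 10 replicates, and 5 in all, the pair included, never exceeded 3 counts in any replicate. The summed CPM of all 50 genes was 2620.4, 2421, 2401, 2928 and 4570.2 across naive replicates 1 to 5, against 2803, 2698, 2728, 2768 and 3443 across SCVS replicates 1 to 5. The groups overlapped, at 2988 ± 909 CPM (SD, n = 5) in naive and 2888 ± 313 CPM (SD, n = 5) in SCVS replicates, and naive replicate 5, which was low in endothelial markers, was the highest. Without that replicate the naive mean was 2592 ± 244 CPM (SD, n = 4).

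**Figure D1:**
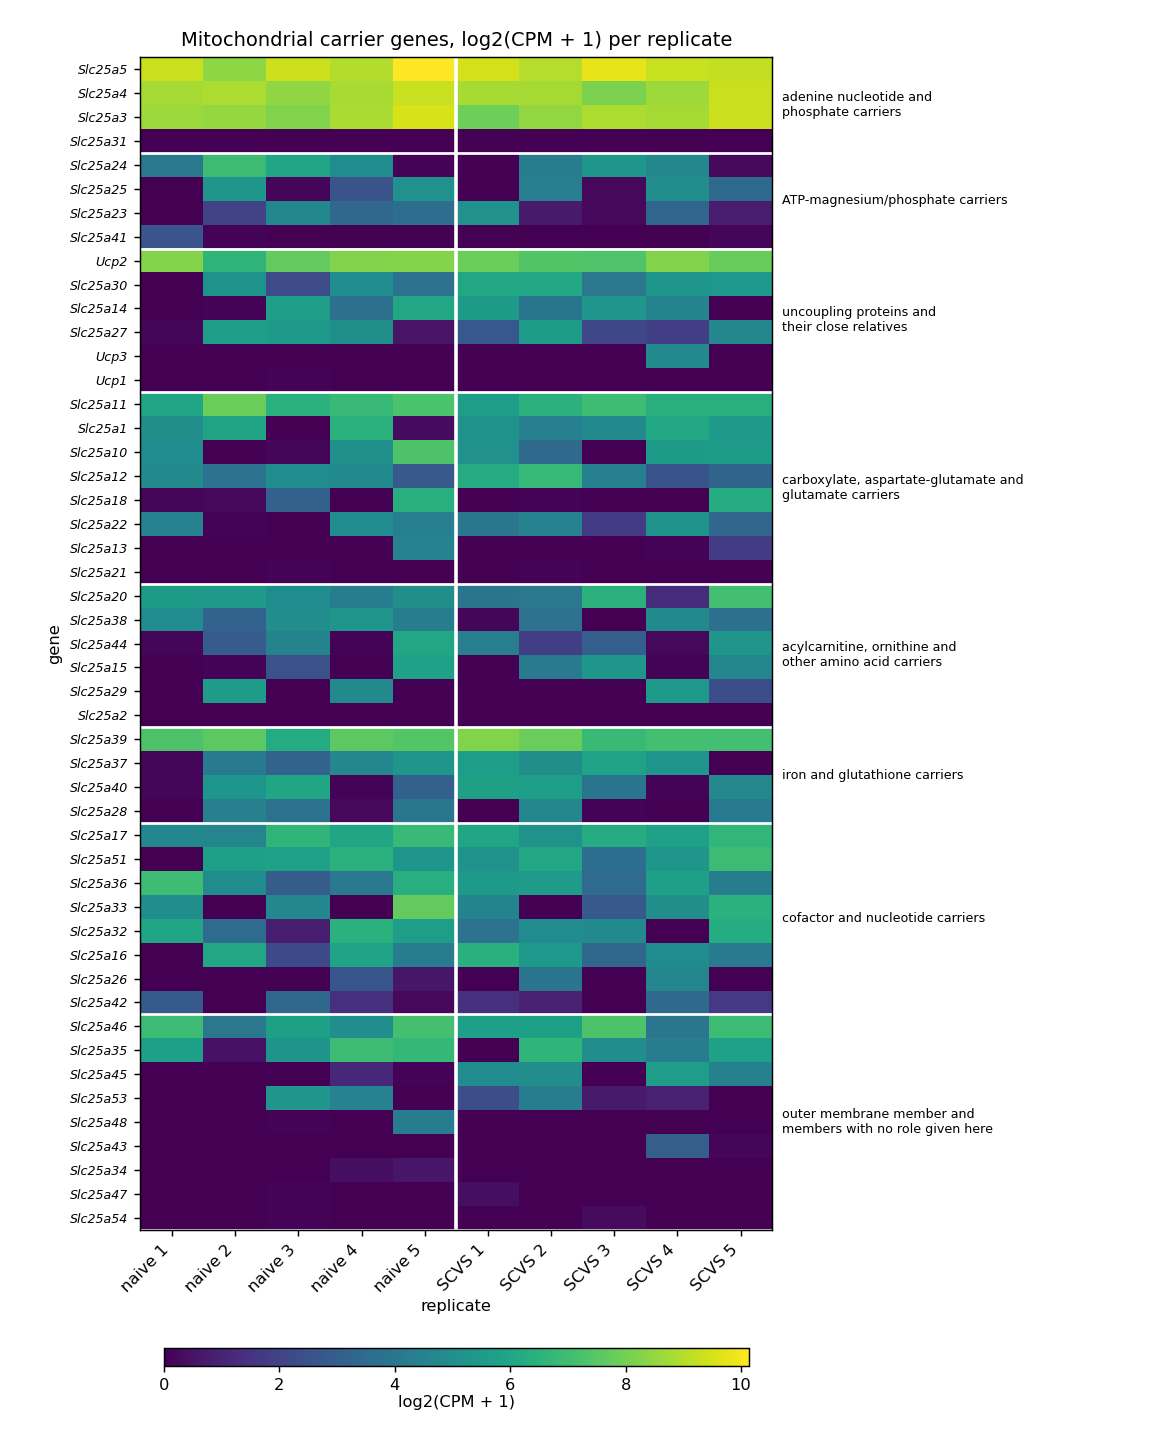
Level of 49 of the 50 carrier genes (rows, grouped by role) in the 5 naive and 5 SCVS replicates (columns), as log2(CPM + 1) on a colour scale from 0 (dark) to about 10 (bright). Slc25a5, Slc25a4, Slc25a3, Ucp2, Slc25a39 and Slc25a11 are bright in every column, whereas genes such as Slc25a10, Slc25a14 and Slc25a33 are dark in some columns of a group and brighter in others.

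A group of 6 genes carried most of the family's reads. Slc25a5, Slc25a4, Slc25a3, Ucp2, Slc25a39 and Slc25a11 each averaged at least 100 CPM over the 10 replicates, and together they made up 66.2% to 75.8% of the family's summed CPM in a replicate. Levels of different genes were set side by side per kilobase of annotated exon. On that scale Slc25a5 was highest with a mean of 399 CPM per kilobase, followed by Slc25a4 with 192, Slc25a3 with 79.1, Slc25a39 with 61.4, Slc25a11 with 50.5, Slc25a17 with 39.1 and Ucp2 with 32.6. The length was the union of all annotated exons of a gene. It was 5550 bases for Slc25a3 and 6991 for Ucp2, against 1646 for Slc25a5 and 2353 for Slc25a4. Ranks on this scale therefore depend on the annotation. Without the division, means were 657 CPM for Slc25a5, 452 for Slc25a4, 439 for Slc25a3 and 228 for Ucp2.

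The adenine nucleotide translocases exchange matrix ATP for cytosolic ADP. Slc25a5 and Slc25a4, the 2 translocase genes read in these cells, lie on chromosomes X and 8. Their promoter sequences are shown because these carriers had the highest means in CPM and per kilobase of annotated exon. Beside them is that of Slc25a45 on chromosome 19, which had the smallest p of the family. The sequences come from RefSeq (GRCm38.p6), run 5′ to 3′ on the gene's strand from 250 bases before to 50 bases after the start, and cover chrX:36795347-36795646 (plus strand), chr8:46211013-46211312 (minus strand) and chr19:5877572-5877871 (plus strand), with the CCGGAAG motif in capitals where it was found.
Slc25a5: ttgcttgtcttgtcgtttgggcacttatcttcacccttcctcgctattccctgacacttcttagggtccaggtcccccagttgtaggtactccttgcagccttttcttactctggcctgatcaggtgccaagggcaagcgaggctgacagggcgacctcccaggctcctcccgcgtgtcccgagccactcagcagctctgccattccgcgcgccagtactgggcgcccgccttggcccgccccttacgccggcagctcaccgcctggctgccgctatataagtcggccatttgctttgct
Slc25a4: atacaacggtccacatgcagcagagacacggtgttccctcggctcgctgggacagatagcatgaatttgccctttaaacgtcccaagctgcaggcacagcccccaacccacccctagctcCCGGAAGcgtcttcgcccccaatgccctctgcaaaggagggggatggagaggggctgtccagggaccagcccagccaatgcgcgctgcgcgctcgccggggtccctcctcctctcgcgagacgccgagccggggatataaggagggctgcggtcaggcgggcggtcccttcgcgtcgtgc
Slc25a45: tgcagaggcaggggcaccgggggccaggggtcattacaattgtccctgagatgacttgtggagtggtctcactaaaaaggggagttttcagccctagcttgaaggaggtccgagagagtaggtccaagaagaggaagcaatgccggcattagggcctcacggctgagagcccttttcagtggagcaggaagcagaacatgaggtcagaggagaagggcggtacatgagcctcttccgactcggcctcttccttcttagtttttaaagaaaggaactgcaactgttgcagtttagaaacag

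These windows were searched on both strands for 3 motifs of factors that act on mitochondrial genes, namely the NRF1 core TGCGCA, the ETS core CCGGAAG and the estrogen-related receptor site AAGGTCA, none of which contains another. Of the 3 promoters printed, that of Slc25a4 alone held a match. The table of promoters held 39 of the 50 carrier genes. The NRF1 core was present for 5 of them (12.8%) against 8.79% of all 27025 genes, the ETS core for 7 (17.9%) against 9.93%, and AAGGTCA for 1 (2.56%, Slc25a34) against 5.38%. Slc25a3 was the member with both the NRF1 core and the ETS core.

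Slc25a5 had 634, 339.6, 665, 499.8 and 1122 CPM across naive replicates 1 to 5, against 712, 514, 873, 613 and 592 CPM across SCVS replicates 1 to 5. The groups overlapped, and the highest value was again that of naive replicate 5. The mean was 652 ± 292 CPM in naive and 661 ± 138 CPM in SCVS replicates (SD, n = 5), with a log2 fold change of -0.02 (SE 0.34), and the sign of this value turned with the scaling, being 0.020 with no scaling factor. A processed copy, Slc25a5-ps, could take up reads of Slc25a5, but it had counts in 2 replicates, with 3 in naive replicate 2 and 14 in SCVS replicate 2.

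Slc25a4 had 437, 467, 353, 442 and 622 CPM across naive replicates 1 to 5, against 448, 439, 277, 401 and 632 CPM across SCVS replicates 1 to 5. It had the lowest biological coefficient of variation of the tested carriers (0.435), with 464 ± 98.1 CPM in naive and 439 ± 128 CPM in SCVS replicates (SD, n = 5) and a log2 fold change of -0.12 (SE 0.28), and the groups overlapped. Per kilobase of exon Slc25a5 exceeded Slc25a4 in all 10 replicates, by a factor of 1.04 (naive replicate 2) to 4.51 (SCVS replicate 3). The ratio averaged 2.00 ± 0.688 (SD, n = 5) in naive and 2.40 ± 1.24 (SD, n = 5) in SCVS replicates, so it did not differ beyond its spread. Slc25a31, the translocase best known from testis, had no count in any replicate.

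Slc25a3, the carrier that brings phosphate into the matrix for ATP synthesis, had 388, 373, 295, 464 and 738 CPM across naive replicates 1 to 5, against 239.9, 356, 472, 435 and 631 CPM across SCVS replicates 1 to 5. Its means were 452 ± 171 CPM in naive and 427 ± 145 CPM in SCVS replicates (SD, n = 5), with a log2 fold change of -0.11 (SE 0.35). The lowest value of Slc25a3 was in SCVS replicate 1 and the highest in naive replicate 5, and without the latter the log2 fold change was 0.15 (SE 0.31). The ATP-magnesium/phosphate carriers Slc25a23, Slc25a24 and Slc25a25, which adjust the matrix pool of adenine nucleotides under calcium control, were much lower. Slc25a24 had 15.6, 123, 63.5, 29.5 and 0.0750 CPM across naive replicates 1 to 5, against 0, 18.8, 39.8, 25.6 and 0.200 CPM across SCVS replicates 1 to 5. Values in naive replicate 5 and SCVS replicates 1 and 5 were at most 3 counts, so both groups ran from near 0 upward, and the fit gave a log2 fold change of -1.46 (SE 1.67), with the second smallest p among the members with lower values in SCVS. Slc25a23 lay between 0 and 33.6 CPM and Slc25a25 between 0 and 37.6 CPM, and Slc25a41 was read above the floor only in naive replicate 1, at 5.37 CPM.

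**Figure D2:**
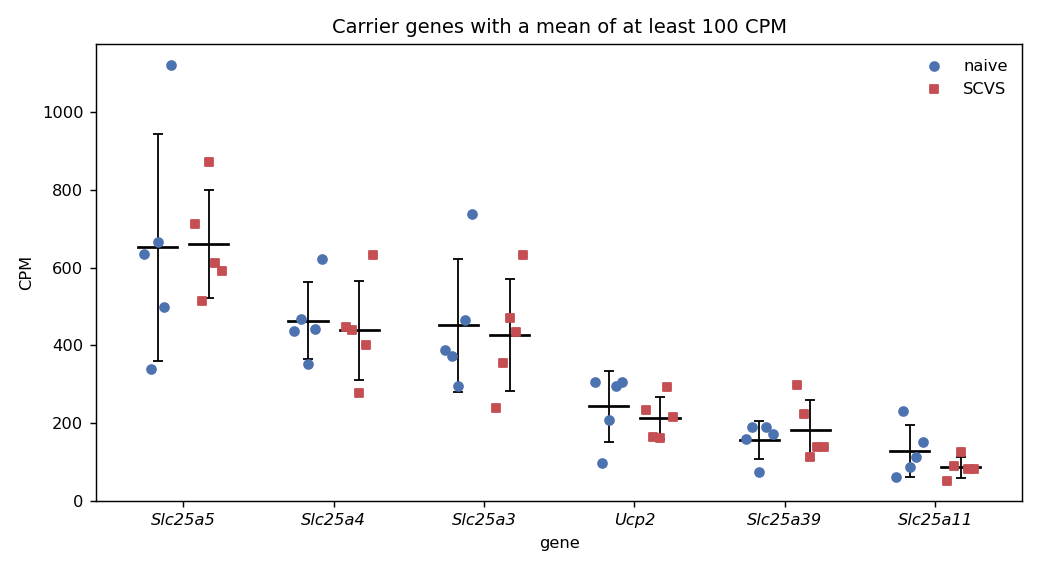
CPM (vertical axis, linear from 0) of the 6 carrier genes with a mean of at least 100 CPM, with naive replicates as blue circles and SCVS replicates as red squares, and bars for the mean and SD of 5 replicates. The 2 groups overlap for each gene, and naive replicate 5 is the highest naive point for Slc25a5 (1122 CPM), Slc25a4 and Slc25a3.

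Among the uncoupling proteins, Ucp2, which is found in many tissues, was the abundant member. Ucp2 had 307, 97.7, 208, 296 and 305 CPM across naive replicates 1 to 5, against 233, 164, 161, 292 and 216 CPM across SCVS replicates 1 to 5. The SCVS values lay inside the naive range, with 243 ± 90.9 CPM in naive and 213 ± 54.2 CPM in SCVS replicates (SD, n = 5) and a log2 fold change of -0.23 (SE 0.37). Ucp1, the uncoupler of brown fat, had 1 count in naive replicate 3 and 0 in the other 9. Ucp3, known from skeletal muscle, had 357 counts (27.0 CPM) in SCVS replicate 4 and 0 in the other 9, while the 4 skeletal muscle markers together gave 3.32 CPM in that replicate and at most 3.68 CPM in any other.

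The relatives Slc25a14, Slc25a27 and Slc25a30, first described as uncoupling proteins of brain and kidney, were read unevenly. Slc25a30 had 0, 34.5, 3.94, 29.2 and 13.1 CPM across naive replicates 1 to 5, against 63.9, 64.4, 15.3, 39.9 and 41.6 CPM across SCVS replicates 1 to 5. It had the second smallest p among members with higher fitted values in SCVS with 16.1 ± 15.2 CPM in naive and 45.0 ± 20.4 CPM in SCVS replicates (SD, n = 5) and a log2 fold change of 1.44 (SE 1.21). SCVS replicate 3 and naive replicates 2 and 4 made the groups overlap. Slc25a14 had 0, 0.0783, 50.3, 12.4 and 65.7 CPM across naive replicates 1 to 5, against 44.4, 14.1, 38.1, 22.9 and 0 CPM across SCVS replicates 1 to 5, and both groups included a replicate with 0 counts. Slc25a27 had 0.0960, 49.3, 42.2, 31.6 and 0.450 CPM across naive replicates 1 to 5, against 5.89, 47.6, 3.41, 2.72 and 24.1 CPM across SCVS replicates 1 to 5. Neither differed beyond its spread, with a log2 fold change of -0.15 (SE 1.78) for Slc25a14 and a log2 fold change of -0.66 (SE 1.44) for Slc25a27.

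Carriers of di- and tricarboxylates link the citric acid cycle to the cytosol. Slc25a11, the oxoglutarate carrier of the malate-aspartate shuttle, had 61.0, 231, 87.7, 112 and 151 CPM across naive replicates 1 to 5, against 49.9, 89.8, 125, 82.6 and 81.6 CPM across SCVS replicates 1 to 5. Its means were 128 ± 66.2 CPM in naive and 85.8 ± 26.7 CPM in SCVS replicates (SD, n = 5), and the groups overlapped, with the lowest value in SCVS replicate 1 and the highest in naive replicate 2. Slc25a11 had the smallest p among members with lower fitted values in SCVS, with a log2 fold change of -0.61 (SE 0.42) and an edgeR adjusted p of 1.00. An annotated gene on the opposite strand, Rnf167, overlaps it, and whether the counting used strand is not given in the sources used here.

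Slc25a1, the citrate carrier that supplies acetyl units for lipid synthesis, had 31.5, 58.7, 0, 88.0 and 0.225 CPM across naive replicates 1 to 5, against 35.1, 19.5, 27.5, 66.6 and 43.3 CPM across SCVS replicates 1 to 5. Naive values ran from 0 to the highest of all 10 replicates, so that the SCVS values lay within them, with a log2 fold change of 0.11 (SE 1.39). Slc25a10, the dicarboxylate carrier, had 29.6, 0, 0.143, 33.2 and 158 CPM across naive replicates 1 to 5, against 34.3, 10.3, 0, 45.5 and 47.0 CPM across SCVS replicates 1 to 5. Naive replicate 5 decided the naive mean, at 44.1 ± 65.4 CPM in naive and 27.4 ± 21.2 CPM in SCVS replicates (SD, n = 5), and the fitted a log2 fold change of -0.72 (SE 1.78) became 0.79 (SE 1.95) without it.

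The aspartate-glutamate carriers are the other limb of the malate-aspartate shuttle. Slc25a12, the form of excitable tissues, had 27.2, 13.7, 29.3, 26.7 and 6.08 CPM across naive replicates 1 to 5, against 74.9, 110.2, 19.5, 5.21 and 8.71 CPM across SCVS replicates 1 to 5. SCVS replicates 1 and 2 were above every naive replicate, and SCVS replicate 4 was below every one. With 20.6 ± 10.2 CPM in naive and 43.7 ± 46.6 CPM in SCVS replicates (SD, n = 5), the fit gave a log2 fold change of 0.96 (SE 0.92) and the third smallest p among members with higher values in SCVS. Slc25a13, the form of liver known as citrin, had 290 counts (21.8 CPM) in naive replicate 5 and 24 counts (2.40 CPM) in SCVS replicate 5, 1 count in SCVS replicate 4 and 0 elsewhere.

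The glutamate carrier Slc25a18 showed a like pattern, with 0.0960, 0.157, 7.73, 0 and 82.3 CPM across naive replicates 1 to 5, against 0, 0.0822, 0, 0 and 75.7 CPM across SCVS replicates 1 to 5. Naive replicate 5 and SCVS replicate 5, its highest libraries, also had the highest sums of the neuronal and glial markers, at 1914 and 1305 CPM against 65.1 to 547 CPM in the other 8. Whether RNA of such cells contributed to Slc25a18 was not tested. Slc25a22, the other glutamate carrier, lay between 0 and 35.9 CPM, and Slc25a21, the oxodicarboxylate carrier, had at most 1 count in a replicate.

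Slc25a20 carries acylcarnitines into the matrix for fatty acid oxidation and had 44.3, 42.4, 29.3, 18.9 and 30.8 CPM across naive replicates 1 to 5, against 13.8, 15.4, 90.0, 1.51 and 135 CPM across SCVS replicates 1 to 5. The lowest and the highest of the 10 values were both SCVS replicates, with 33.1 ± 10.4 CPM in naive and 51.2 ± 58.6 CPM in SCVS replicates (SD, n = 5) and a log2 fold change of 0.62 (SE 0.96). Without SCVS replicate 5, the highest value and the library with the erythroid RNA, the log2 fold change was -0.15. Slc25a38, which imports glycine for the first step of haem synthesis, had 28.5, 8.07, 30.3, 38.4 and 18.4 CPM across naive replicates 1 to 5, against 0.142, 12.7, 0, 27.6 and 12.2 CPM across SCVS replicates 1 to 5. SCVS replicates 1 and 3 were at or below the floor while the other 3 lay within the naive range, and the fit gave a log2 fold change of -1.27 (SE 1.48), with the third smallest p of the members with lower values in SCVS. Slc25a44, a carrier of branched-chain amino acids, had 0.0960, 6.73, 22.3, 0.0737 and 65.0 CPM across naive replicates 1 to 5, against 19.4, 2.71, 7.46, 0.151 and 38.2 CPM across SCVS replicates 1 to 5, with a log2 fold change of -0.50 (SE 1.71). The ornithine carrier Slc25a15 reached 54.4 CPM and the basic amino acid carrier Slc25a29 reached 47.7 CPM, each with 0 counts in other replicates of the same group.

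Slc25a39, which moves glutathione into mitochondria, had 158, 190.3, 73.6, 191 and 172 CPM across naive replicates 1 to 5, against 297, 223, 112, 138 and 137 CPM across SCVS replicates 1 to 5. All 10 replicates were above 70 CPM, and the means were 157 ± 48.5 CPM in naive and 181 ± 77.1 CPM in SCVS replicates (SD, n = 5), with a log2 fold change of 0.15 (SE 0.37). The highest SCVS replicates, 1 and 2, lay above the naive range and the other 3 inside it. Its close relative Slc25a40 lay between 0.0737 and 62.6 CPM.

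Mitoferrins import iron for haem and iron-sulphur clusters. Slc25a37, the mitoferrin of erythroid cells, had 0.0960, 17.1, 8.44, 24.8 and 39.6 CPM across naive replicates 1 to 5, against 49.0, 31.1, 56.5, 39.5 and 0 CPM across SCVS replicates 1 to 5. The mean was 18.0 ± 15.2 CPM in naive and 35.2 ± 21.9 CPM in SCVS replicates (SD, n = 5), with a log2 fold change of 0.94 (SE 1.44), and SCVS replicates 1 and 3 were above every naive replicate. SCVS replicate 5, the library with 4387 CPM of erythroid marker RNA, had 0 counts of Slc25a37. Whether erythroid RNA contributed to Slc25a37 in any library was not tested. Slc25a28, the mitoferrin of other tissues, had 0, 20.3, 12.6, 0.147 and 14.9 CPM across naive replicates 1 to 5, against 0, 24.5, 0.0811, 0 and 16.8 CPM across SCVS replicates 1 to 5. SCVS replicates 1, 3 and 4 had at most 1 count, and the fit gave a log2 fold change of -0.32 (SE 2.23).

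Cofactor carriers supply the matrix with molecules made in the cytosol. Slc25a51, the carrier of NAD, had 0, 52.5, 54.0, 87.1 and 39.2 CPM across naive replicates 1 to 5, against 35.3, 64.3, 11.7, 40.4 and 124 CPM across SCVS replicates 1 to 5. Naive replicate 1 was at 0 counts and SCVS replicate 5 the highest, with 46.5 ± 31.4 CPM in naive and 55.1 ± 42.7 CPM in SCVS replicates (SD, n = 5) and a log2 fold change of 0.21 (SE 1.14). Slc25a32, the folate carrier, had 63.6, 10.8, 0.787, 87.8 and 49.8 CPM across naive replicates 1 to 5, against 13.6, 29.4, 28.0, 0 and 75.8 CPM across SCVS replicates 1 to 5, with a log2 fold change of -0.57 (SE 1.38), and the naive range held every SCVS value other than the 0 of replicate 4. Slc25a26, which imports S-adenosylmethionine for methylation in the matrix, had 0, 0, 0, 5.60 and 0.525 CPM across naive replicates 1 to 5, against 0, 14.05, 0, 23.3 and 0 CPM across SCVS replicates 1 to 5. It was above the floor in 2 replicates of each group, so that a log2 fold change of 2.57 (SE 2.67) had an error as wide as itself. Slc25a42, the coenzyme A carrier, had 6.24, 0, 9.30, 1.55 and 0.150 CPM across naive replicates 1 to 5, against 1.63, 0.904, 0, 10.1 and 2.20 CPM across SCVS replicates 1 to 5, with a log2 fold change of -0.25 (SE 1.88).

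The other cofactor and nucleotide carriers gave the same picture of broad ranges. Slc25a17, the peroxisomal member, was read in every replicate, from 23.5 to 114 CPM, with 64.5 ± 40.9 CPM in naive and 65.8 ± 24.7 CPM in SCVS replicates (SD, n = 5). The pyrimidine nucleotide carriers Slc25a36 and Slc25a33 ranged from 6.94 to 128 CPM and from 0 to 205 CPM. Slc25a33 was highest in naive replicate 5.

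Slc25a46, an outer membrane protein involved in fission and cristae, had 123, 15.0, 52.7, 30.1 and 141 CPM across naive replicates 1 to 5, against 52.1, 52.9, 155, 15.0 and 123 CPM across SCVS replicates 1 to 5. Low and high replicates occurred in both groups, with 72.5 ± 56.6 CPM in naive and 79.6 ± 57.6 CPM in SCVS replicates (SD, n = 5) and a log2 fold change of 0.09 (SE 0.74). Slc25a35 and Slc25a53, for which no substrate is given here, ranged from 0 to 123 CPM and from 0 to 37.5 CPM. Slc25a48 was read above the floor in naive replicate 5 alone (243 counts, 18.2 CPM) and Slc25a43 in SCVS replicate 4 alone (99 counts, 7.48 CPM).

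Slc25a45, on chromosome 19, stood out from the other members. Its counts were 0, 0, 0, 16 and 1 across naive replicates 1 to 5, against 420, 371, 0, 654 and 208 across SCVS replicates 1 to 5. Thus 4 of the 5 SCVS replicates lay far above every naive replicate, and SCVS replicate 3 had none. In CPM these were 0, 0, 0, 1.18 and 0.0750 CPM across naive replicates 1 to 5, against 29.8, 30.5, 0, 49.4 and 20.8 CPM across SCVS replicates 1 to 5, with means of 0.251 ± 0.520 CPM in naive and 26.1 ± 17.9 CPM in SCVS replicates (SD, n = 5). The log2 fold change was 6.63 (SE 2.34). In edgeR's quasi-likelihood test p was 0.0158 and the adjusted p 0.971, above the threshold of 0.1. DESeq2 gave a log2 fold change of 6.68 with an adjusted p of 0.0521, below the threshold, and limma an adjusted p of 0.811, and over all alternatives the adjusted p ran from 0.0521 to 1.00. No gene in GENCODE M1, the annotation used here for exon lengths, overlaps Slc25a45. Overlaps in the annotation used for counting were not checked. The highest replicate of Slc25a45, SCVS replicate 4, also had the highest sum of leukocyte and macrophage markers (795 CPM). That sum was 6.57 CPM in SCVS replicate 2, with 371 counts of Slc25a45, and 226 CPM in SCVS replicate 3, with none. The part of such cells in the reads of Slc25a45 was not tested. With naive replicates 1 and 5 and SCVS replicate 5 left out, the log2 fold change was 6.09 (edgeR, adjusted p = 1.00). Whether the make-up of the libraries contributed to the difference was not tested.

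**Figure D3:**
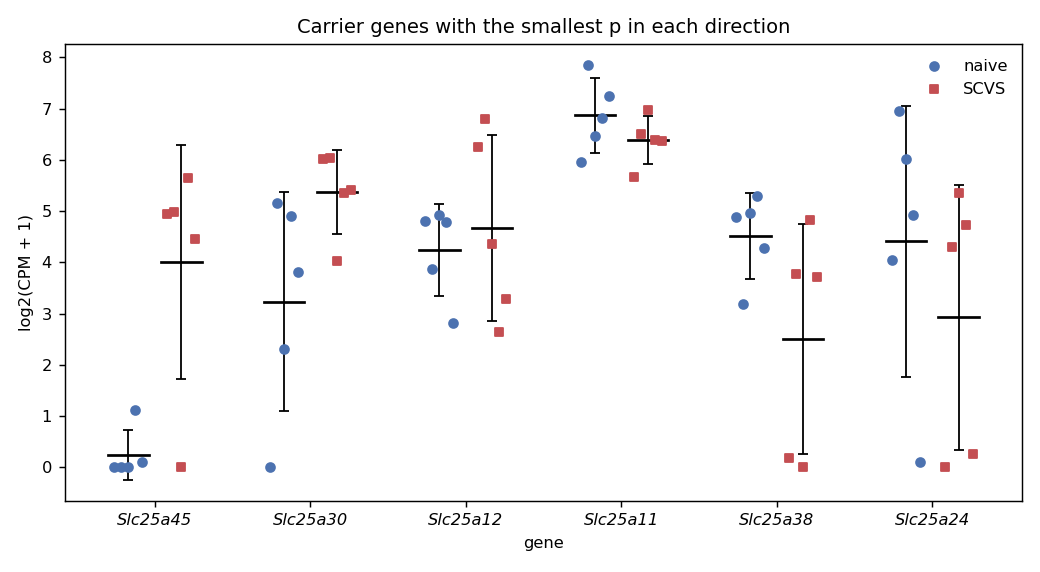
Level as log2(CPM + 1) of the 6 carrier genes with the smallest p, 3 higher and 3 lower in SCVS, with naive replicates as blue circles, SCVS replicates as red squares and bars for the mean and SD of 5 replicates. For Slc25a45, 4 SCVS replicates lie between 20.8 and 49.4 CPM and the fifth at 0, while naive replicates reach at most 1.18 CPM, and each of the 6 genes has overlapping groups.

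Across the family, none of the 38 tested genes passed an adjusted p of 0.1 in edgeR's quasi-likelihood test, where 0 of all 14815 genes (0%) passed. The smallest adjusted p of the family was 0.971, for Slc25a45, and that of each other tested member was 1.00. At an unadjusted p under 0.05 there was 1 member, Slc25a45 (2.63%), against 460 of all tested genes (3.10%). DESeq2 called 1 of 37 members with an adjusted p (2.70%), again Slc25a45, against 114 of 13998 genes (0.814%). No member had groups that did not overlap in CPM, in either direction, against 66 genes (0.445%) higher and 27 genes (0.182%) lower in SCVS. The share of members with p under 0.05 was thus close to that of all genes.

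Fitted log2 fold changes of the tested members had a median of -0.14, with 16 above and 22 below 0, beside a median of -0.03 over all tested genes (7137 above and 7678 below). This median had no stable sign. Without naive replicate 5 it was 0.17 over 37 tested members (23 above and 14 below 0), beside 0.02 over all genes, and with limma it was 0.38. With naive replicates 1 and 5 and SCVS replicate 5 left out together it was -0.06, with 17 above and 20 below 0. Naive replicate 5 held the highest CPM of 9 of the 38 tested members (23.7%), compared with 14.7% of all tested genes, and of the 9 other replicates the share was 13.2% or less.

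**Figure D4:**
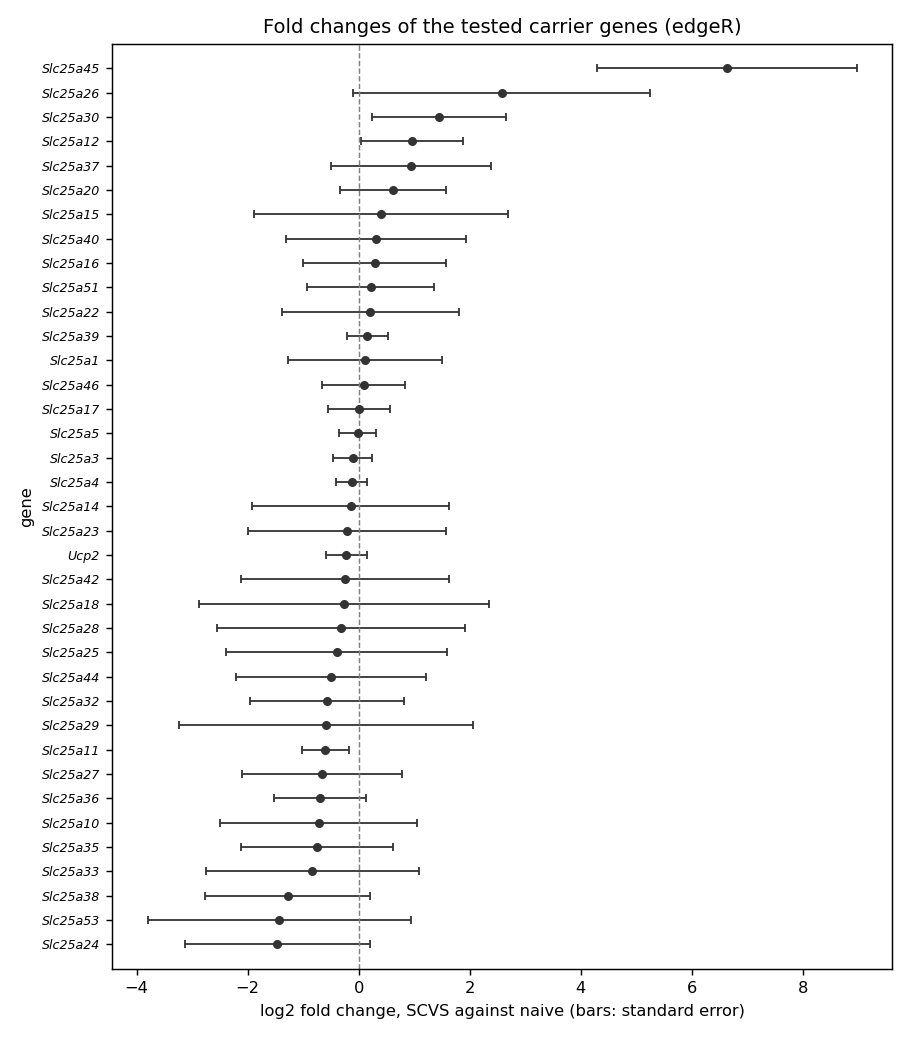
Log2 fold change of SCVS against naive (horizontal axis) for 37 of the 38 tested carrier genes (rows), with bars for the standard error from edgeR. For 33 of these 37 genes the bar reaches 0, and the exceptions are Slc25a45, Slc25a30, Slc25a12 and Slc25a11.

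The precision of these values followed the level of the gene. For the 6 genes with at least 100 CPM the SE of the log2 fold change was 0.28 to 0.42, and their highest replicate was 2.28 to 4.63 times the lowest. For the other 32 tested members the SE was 0.56 to 2.67, and it exceeded 1 for 27 of them. The biological coefficient of variation, edgeR's estimate of the spread between replicates, was 0.435 to 0.554 for the 6 genes and 0.696 to 3.33 for the others, with a median of 1.49 over the 38 members and 1.46 over all tested genes.

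Replicates of a group often switched a carrier between absence and a sizeable count. Among naive replicates, 16 of 38 members (42.1%) had 0 counts in a replicate and at least 100 in another, against 34.8% of all tested genes, and among SCVS replicates 17 members (44.7%) did so, against 32.5%. In all, 23 members did so in at least 1 group and 10 in both, among them Slc25a10, Slc25a14, Slc25a18 and Slc25a42. Shares of all genes for at least 1 group follow by level, and none was taken for both groups. By level, the pattern was found in all 5 members with a mean below 10 CPM (68.5% of all genes at that level), in 9 of 13 between 10 and 30 CPM (70.5%), in 9 of 14 between 30 and 100 CPM (20.6%) and in 0 of 6 above (1.98%). Conversely, 11 members had more than 3 counts in all 10 replicates (28.9%, against 38.1% of all tested genes), namely Slc25a3, Slc25a4, Slc25a5, Slc25a11, Slc25a12, Slc25a17, Slc25a20, Slc25a36, Slc25a39, Slc25a46 and Ucp2. Naive replicate 1 had 0 counts for 12 of the 38 tested members (31.6%, against 22.5% of all tested genes), the most of any replicate, and naive replicate 5 and SCVS replicate 2 had the fewest, with 2 each (5.26%, against 18.7% and 12.9%).

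**Figure D5:**
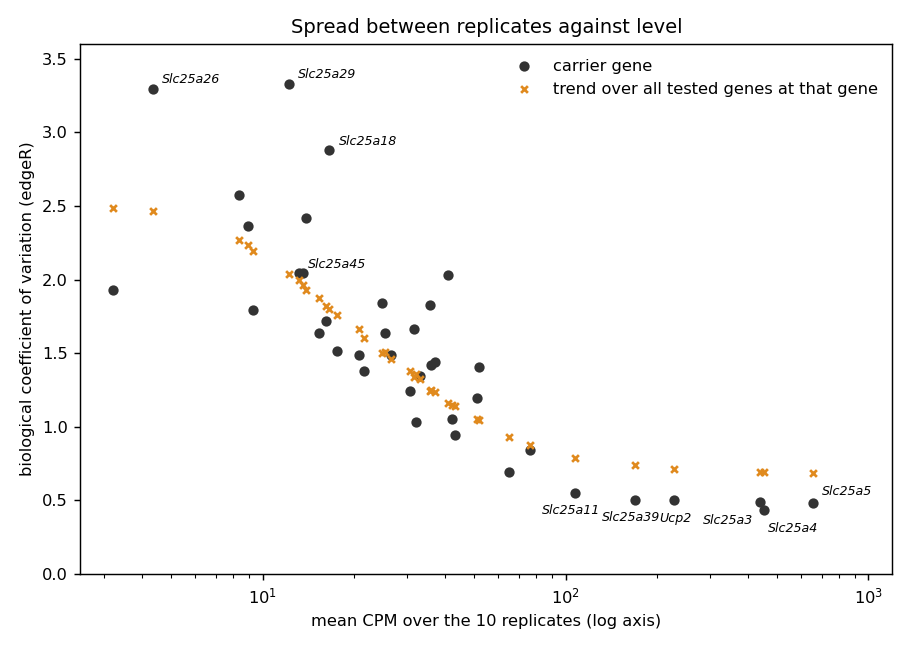
Biological coefficient of variation from edgeR (vertical axis) against the mean CPM over the 10 replicates (horizontal axis, log scale) for the 38 tested carrier genes (dots), with the trend over all tested genes at each gene's level (orange crosses). The spread falls from as much as 3.33 for Slc25a29 to between 0.435 and 0.554 for the 6 genes above 100 CPM, which lie below the trend.

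A list of 37 other genes of carrier import, mitochondrial transport and its regulation was set beside the carriers. It held the TIM22 and TOM import route, the carrier relatives Mtch1 and Mtch2, the pyruvate carrier, the outer membrane channels, the calcium uniporter, the sideroflexins and transcriptional regulators of mitochondrial genes. All 37 were tested, and none passed an adjusted p of 0.1 in edgeR or DESeq2 or an unadjusted p under 0.05 in edgeR. Shares over all genes were 0% in edgeR and 0.814% in DESeq2 for the adjusted p, and 3.10% for the unadjusted p. Fitted values were above 0 for 19 and below 0 for 18, with a median log2 fold change of 0.03. The channel Vdac2 had 260 ± 27.6 CPM in naive and 313 ± 52.2 CPM in SCVS replicates (SD, n = 5), and Timm22, the pore through which carriers enter the inner membrane, had 74.9 ± 26.8 and 51.5 ± 15.3 CPM. More than 3 counts in all 10 replicates were found for 22 of the 37, against 38.1% of all tested genes.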

How the data were processed

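RNA was amplified with a whole-transcriptome kit, and the authors deposited unnormalized, unfiltered read counts per gene for each replicate. The submitters' processing notes name cutadapt 1.9.1, HISAT2 2.0.1, HTSeq 0.6.1, DESeq2 and GRCm38, whereas the methods name mm9. Because these differ, the only coordinates given are those of the RefSeq promoter windows, and chromosomes and exon lengths were taken from GENCODE M1, which held the identifiers of all 50 carriers. Strand use in counting is not given in the sources used here. In GENCODE M1, 13 of the tested carriers overlap a gene on the opposite strand. Overlaps with other annotation records on the same strand occur too, for example of Slc25a51 with AL772376.2 and of Slc25a3 with SNORA53. Their effect on the counts was not tested.

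Genes exceeding 5 counts in 3 or more of the 10 replicates were tested with edgeR 4.0.16 (quasi-likelihood test, TMM scaling, R 4.3.3), with Benjamini-Hochberg adjustment over all 14815 genes and a threshold of 0.1. Fold changes compare SCVS with naive, and the SE is the absolute log2 fold change divided by the square root of F. CPM used the total count of each replicate. Alternatives were DESeq2 1.42.0, limma 3.58.1 with voom and quality weights, other scalings and filters, a replicate block, leaving out each replicate, and, chosen after seeing the data, leaving out 3 libraries. Tests were checked on simulated counts, whose spread between replicates was below the median spread of the tested genes. How the tests perform at the spread of these data was therefore not shown. Amplified reads are not independent molecules, so the floor of 3 counts covers counting error only, and p-values measure the spread between these pools of mice.

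Members, role groups, the list of import, transport and regulator genes and the markers were chosen with earlier results of these data known. The genes named with their values are 26 chosen by role, any member called by edgeR or DESeq2, and, by smallest p, 3 higher and 3 lower in SCVS, 28 in all, of which 24 were tested. Other members are given by their range, 1 member is counted but not reported here by name, and Slc25a18, Vdac2 and Timm22 were described after their values had been seen.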

Additional observations from a re-analysis of the deposited data

Results flagged for a closer look

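Within-group values were examined for 24 tested genes, the summed CPM and the number of carriers above the floor, 52 groups of 5 in all. In 7 of them the gap between the extreme replicate and its neighbour exceeded 0.71 of the range (Dixon's 95% limit). That limit gives about 1 in 20 for independent, normally distributed values. CPM with many zeros are not such values, and the summed CPM contains the single genes. The 7 are therefore listed as description and not as an excess over chance. The summed CPM of the carriers was 4570.2 in naive replicate 5, against 2401 to 2928 in the other naive replicates, and 3443 in SCVS replicate 5, against 2698 to 2803 in the other SCVS replicates. These are libraries that stood apart by their marker genes, and the part of that in the sums was not tested. Slc25a10 was at 157.6 CPM in naive replicate 5, against at most 33.2 CPM in the other naive replicates. Slc25a39 was at 73.6 CPM in naive replicate 3, against 158 to 191 CPM in the others. Slc25a26 was at 5.60 CPM and Slc25a45 at 1.18 CPM in naive replicate 4, where the other naive replicates reached at most 0.525 and 0.0750 CPM. Slc25a42 was at 10.1 CPM in SCVS replicate 4, against at most 2.20 CPM in the other SCVS replicates.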

How the results depend on the processing

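No carrier was called by edgeR under any scaling, filter, replicate block or left-out replicate, nor by limma. DESeq2 called 1 carrier, Slc25a45 (log2 fold change 6.68), and 114 genes in all, and limma called 3 genes in all, against 0 in edgeR. The adjusted p of Slc25a45 ranged from 0.0521 (DESeq2) to 1.00 over the alternatives, and its log2 fold change from 6.22 to 9.74 when a replicate was left out, highest without naive replicate 4. Carriers with p under 0.05 numbered 5 with no filter (Slc25a34, Slc25a43, Slc25a45, Slc25a48 and Ucp3, each but Slc25a45 above the floor in 1 or 2 replicates; 10.4% of 48 members against 16.8% of all genes) and 0 without the 3 libraries that stood apart, where 3 naive and 4 SCVS replicates remain and 413 of 13051 genes (3.16%) had such a p. They numbered 1 in every fit that left out a single replicate, beside 2.66% to 4.24% of all genes. Carriers whose groups did not overlap numbered 0 to 2 with a replicate left out, the 2 being Slc25a30 and Slc25a45 without SCVS replicate 3, where 1.33% of all genes did so. The deviations of same-numbered replicates correlated with r of -0.0089 to 0.133, and only those numbered 5 were over 0.1. Other pairs had r of -0.110 to 0.0667. The highest r was with the own number for 4 of 5 naive and 3 of 5 SCVS replicates, a weak hint from the data and not from the design. The largest r, 0.133, joined naive replicate 5 and SCVS replicate 5, which also had the highest neuronal and glial sums (1914 and 1305 CPM). The study states that its experiments used at least 2 cohorts of mice, but the labels assign no replicate to a cohort. What the pairs share was not tested. With a replicate block 0 carriers were called, 1 had p under 0.05 (1.80% of all genes) and the median log2 fold change was 0.13.

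Of 24 tested genes, 9 kept the sign of their log2 fold change under each alternative in which they were tested, which for Slc25a26 leaves out the stricter filter. The block turned Slc25a5 to 0.068, Slc25a14 to 1.80, Slc25a27 to 0.25, Slc25a10 to 0.11, Slc25a20 to -0.71, Slc25a42 to 1.55 and Slc25a44 to 0.029. Limma turned Slc25a5 to 0.17, Slc25a14 to 1.55, Slc25a10 to 2.14, Slc25a20 to -0.82, Slc25a42 to 0.51 and Slc25a44 to 1.29, and no scaling factor turned Slc25a5 to 0.020. Without the 3 libraries, Slc25a5 was 0.42, Ucp2 0.069, Slc25a14 0.47, Slc25a1 -0.37, Slc25a10 1.04 and Slc25a51 -0.82. With a replicate left out, the log2 fold change ranged from -0.31 to 0.015 for Slc25a4, -0.19 to 0.27 for Slc25a5, -0.31 to 0.15 for Slc25a3, -0.48 to 0.56 for Slc25a14, -0.21 to 0.75 for Slc25a1, -1.04 to 0.79 for Slc25a10, -0.15 to 0.94 for Slc25a20, -1.15 to 0.12 for Slc25a28, -0.091 to 0.27 for Slc25a39, -1.61 to 0.54 for Slc25a42, -0.37 to 0.55 for Slc25a51, -1.41 to 0.86 for Slc25a44 and -0.33 to 0.48 for Slc25a46. The cause of these turns was not tested. Depth set a floor of 0.213 to 0.300 CPM.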
